A study of Homo sapiens with 14 samples.

Results

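Most of the 126 nuclear genes examined here encode proteins of the mitochondrial ribosome and of respiratory complex I, or factors that assist its assembly. They are the GENCODE protein-coding genes whose symbol begins with MRPL, MRPS or NDUF, out of 20033 protein-coding genes in all. Grouped by symbol, the set held 49 MRPL genes, called here the large mitoribosomal subunit, and 29 MRPS genes, called here the small subunit. Both together are called mitoribosomal. These names follow the symbol alone, and the place of each protein was not checked. It also held 7 core subunits of complex I, 33 accessory and other NDUF genes and 8 assembly factors (NDUFAF). BEAS-2B, an immortalised human bronchial epithelial cell line, was used as WT and as Nrf2 KO cells. The Nrf2 KO was made by CRISPR-Cas9 with guides to exon 2 of Nrf2, and the WT cells were colonies from the same transfection that still made Nrf2. The labels do not say whether the Nrf2 KO cells are a single clone. Both genotypes were left untreated (control) or received 1 µM As3+ for 6 h. KLF4 was mapped by ChIP-seq in 4 libraries, 1 for each of WT control, WT As3+, Nrf2 KO control and Nrf2 KO As3+. Each condition had 1 library and thus no replicates, so differences between conditions are given without a test. Peak lists hold no RNA or protein level, so neither the cell type nor the loss of Nrf2 could be checked from them.

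Complex I passes electrons from NADH to ubiquinone at the inner mitochondrial membrane and pumps protons as it does so. Its core subunits carry the catalysis, its accessory subunits surround them, and NDUFAF proteins assist assembly without staying in the finished enzyme. Part of the core is made inside the mitochondrion by the mitochondrial ribosome, whose own proteins are all encoded in the nucleus, so both gene groups are needed for oxidative phosphorylation. KLF4 is a zinc finger transcription factor that binds GC-rich and CACCC-like DNA, and many housekeeping promoters, those of mitochondrial genes among them, are rich in CpG.

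The 4 lists differed greatly in length, with 751 peaks in WT control, 29870 in WT As3+, 76545 in Nrf2 KO control and 130 in Nrf2 KO As3+. The median summit held, as worked out from the authors' fold and p, 25, 10, 7 and 19 fragments in the same order. The lowest local background ran from 0.491 fragments in Nrf2 KO control to 1.90 in WT control. The longest list therefore came with the lowest background, and a promoter missing from a short list may lie below that list's threshold. A gene was counted when a peak summit lay within 2 kb of the TSS of its canonical transcript, called here a promoter summit. Shares carry exact Clopper-Pearson 95% intervals, which cover counting over genes only.

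KLF4 binding at these promoters was listed almost entirely in WT As3+ and Nrf2 KO control cells. In WT control cells 1 of 126 genes had a promoter summit (0.794%, interval 0.0201 to 4.34), against 0.794% of all protein-coding genes. In WT As3+ cells 80 genes had one (63.5%, 54.4 to 71.9), against 52.5% of all protein-coding genes. In Nrf2 KO control cells the count was 96 (76.2%, 67.8 to 83.3), against 67.5%. In Nrf2 KO As3+ cells it was 0, with an upper bound of 2.89%, against 0.195%. The mitochondrial genes thus stood 10.9 percentage points above all protein-coding genes in WT As3+ and 8.65 points above in Nrf2 KO control, while in the short lists their share was at or under the general one. When the Nrf2 KO control list was cut to its 29870 strongest peaks, the length of the WT As3+ list, 67 genes kept a promoter summit and the difference from all protein-coding genes shrank to 2.34 points. The order of WT As3+ and Nrf2 KO control, 80 against 96 genes, therefore turned to 80 against 67 at equal list length. For all protein-coding genes it turned too, from 52.5% against 67.5% to 52.5% against 50.8%.

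**Figure D1:**
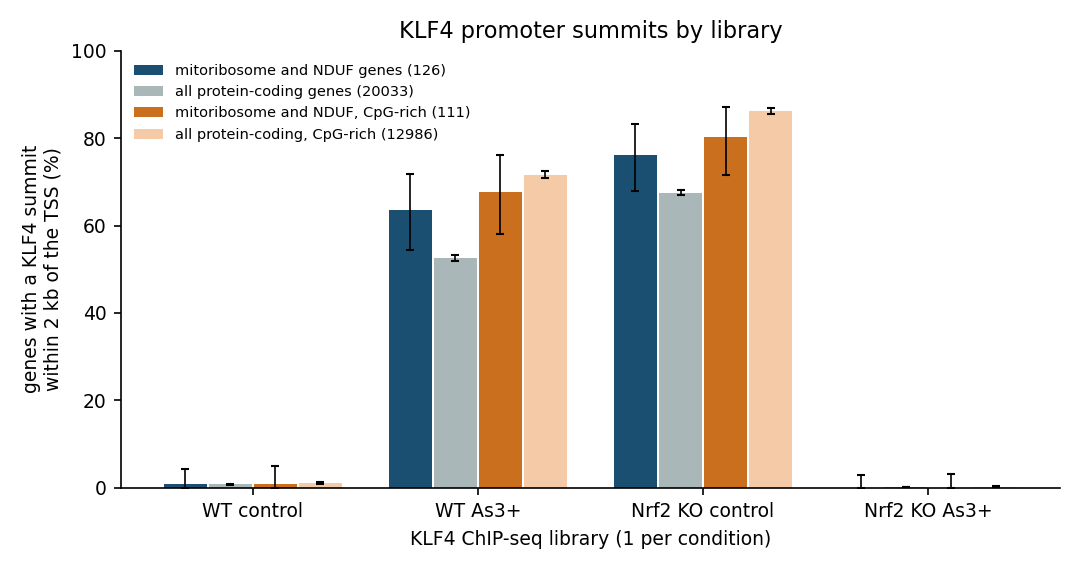
Share of genes with a KLF4 summit within 2 kb of the TSS (vertical axis, percent) in each of the 4 libraries, for the 126 mitoribosome and NDUF genes, all protein-coding genes and the CpG-rich promoters of both; bars on the columns are exact 95% intervals. WT As3+ (63.5%) and Nrf2 KO control (76.2%) hold nearly all promoter summits of the 126 genes, and the CpG-rich genes of the genome lie above them in both.

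NDUFB9, an accessory subunit of complex I, was the gene with a promoter summit in WT control. In WT control cells this summit was 43 bp before the TSS and had a fold enrichment of 3.16, 19 fragments over the summit and a −log10 q of 1.94. In WT As3+ it was 69 bp upstream, where the fold was 9.06 and 29 fragments, and in Nrf2 KO control 59 bp upstream, where it was 6.32 and 14 fragments. No NDUFB9 summit was listed in Nrf2 KO As3+. NDUFB9 shares this promoter with TATDN1, whose TSS on the opposite strand is 38 bp away, so the summit cannot be assigned to either gene. The WT control peak was close to the threshold of its list and was lost at a −log10 q of at least 2.

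Promoters bound in both long lists were the commonest class. A summit was present in both WT As3+ and Nrf2 KO control at 71 genes (56.3%), against 48.9% of all protein-coding genes. It was present in WT As3+ and not Nrf2 KO control at 9 genes (7.14%, 3.32 to 13.1), against 3.62%. It was present in Nrf2 KO control and not WT As3+ at 25 genes (19.8%, 13.3 to 27.9), against 18.6%. At equal list length these counts became 25 and 12, so their order turned, and the first was 16 within 500 bp of the TSS or at a −log10 q of 5. These classes were not counted over all protein-coding genes at those settings. The turn can thus not be read as a trait of this set, since the Nrf2 KO control share of all genes also fell, to 50.8%. Neither list had a summit at 21 genes (16.7%, 10.6 to 24.3), against 28.8%. Of the WT As3+ promoters, 88.8% also had a summit in Nrf2 KO control, and of the Nrf2 KO control promoters 74.0% also had one in WT As3+. For all protein-coding genes these shares were 93.1% and 72.4%. Where both lists had a summit, the strongest summits of the 2 libraries were a median of 196 bp apart, and 36 of 71 pairs (50.7%) were within 200 bp, against a median of 235 bp and 46% for all protein-coding genes.

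The highest peaks fell on mitoribosomal genes of both subunits and on the NDUF genes NDUFB9, NDUFV1 and NDUFAF3. MRPS34, a small-subunit protein, had the largest −log10 p in WT As3+, 24.7, at a summit with a fold of 10.3 that lay 156 bp before its TSS (chr16:1773134, GRCh38, minus strand). It also had a −log10 p of 22.0 in Nrf2 KO control, where the strongest of its 3 summits lay 1763 bp downstream of the TSS and past the end of this short gene. MRPS26, another small-subunit protein, had the largest −log10 p in Nrf2 KO control, 26.5, with a fold of 11.6 at 509 bp downstream (TSS chr20:3046052, plus strand). In WT As3+ the same promoter had a −log10 p of 6.87 and a fold of 4.44, at 576 bp. MRPS26 thus ranked at percentile 99.6 among the promoter peaks of Nrf2 KO control and at percentile 26.8 among those of WT As3+.

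MRPL39, of the large subunit, ranked higher in WT As3+ than in Nrf2 KO control. Its WT As3+ summit lay 21 bp upstream with a fold of 9.37, a −log10 p of 23.6 and percentile 97.9, and its Nrf2 KO control summit lay at the TSS itself with a fold of 5.26, a −log10 p of 8.20 and percentile 43.0. MRPL40 ranked at percentile 94.8 in WT As3+ and 75.5 in Nrf2 KO control, with summits at 125 and 134 bp upstream of its TSS. MRPL34 ranked at percentiles 48.5 and 96.2 in the same order. NDUFAF3, an assembly factor, ranked at 93.7 and 91.2 and was high in both libraries. Percentiles within each list are given because fold and p depend on the depth of a library and were not compared between libraries as binding levels.

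**Figure D2:**
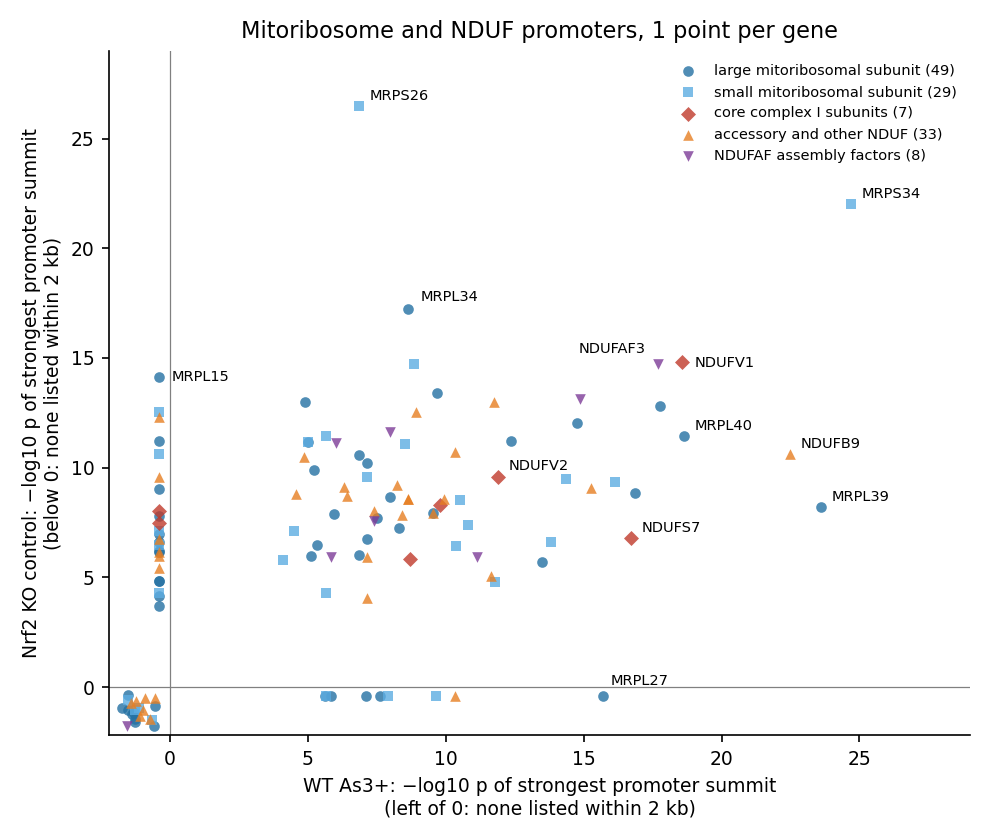
Strongest promoter summit of each of the 126 genes, as −log10 p in WT As3+ (horizontal axis) and in Nrf2 KO control (vertical axis), with symbols by role; points left of or below 0 have no summit listed within 2 kb, and those with neither are spread in the lower left corner. MRPS34 and NDUFV1 are high in both libraries, MRPS26 in Nrf2 KO control and MRPL39 and NDUFB9 in WT As3+. The MRPS34 summits are at different places, 156 bp upstream of the TSS in WT As3+ and 1763 bp downstream in Nrf2 KO control.

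The 7 core subunits encoded in the nucleus all had a promoter summit in Nrf2 KO control (interval 59 to 100), against 67.5% of all protein-coding genes. In WT As3+ 5 had one (71.4%, 29 to 96.3), against 52.5%. Both intervals held the general share. NDUFV1, which binds NADH and flavin, had the highest core summit in both libraries. Its fold was 8.66 with 23 fragments at 87 bp upstream in WT As3+ and 8.40 with 16 fragments at 215 bp downstream in Nrf2 KO control (TSS chr11:67606936, plus strand). NDUFS7, an iron-sulfur subunit near the ubiquinone site, had a fold of 8.17 in WT As3+ and 4.58 in Nrf2 KO control, at 133 and 24 bp upstream. NDUFV2, an iron-sulfur partner of NDUFV1, had folds of 6.41 and 6.12 at 77 and 148 bp upstream.

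NDUFS3 had folds of 4.70 and 5.31 at 71 and 219 bp upstream, on a promoter shared with KBTBD4 104 bp away. NDUFS1, the largest iron-sulfur subunit, had folds of 4.63 and 4.53, but its 2 summits lay far apart, at 544 bp upstream and 1424 bp downstream. NDUFS8, another iron-sulfur subunit, had a summit in Nrf2 KO control at 603 bp upstream, with a fold of 5.34. Its nearest WT As3+ summit lay 2672 bp upstream, outside the window. All 5 core summits of WT As3+ were upstream of the TSS and reached a −log10 q of 5. Of all protein-coding promoter summits of that library, 4502 of 10526 were upstream and 54.5% reached this limit. The median fold of the 5 was 6.41 against 5.32. In Nrf2 KO control 3 of 7 reached a −log10 q of 5, against 57% of all, and the median fold was 5.34 against 5.81. These values rest on 5 and 7 genes and were not tested.

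In the other groups, too, the intervals held the shares of all protein-coding genes, 52.5% in WT As3+ and 67.5% in Nrf2 KO control. The large subunit had 28 genes of 49 (57.1%) in WT As3+ and 35 (71.4%) in Nrf2 KO control. The small subunit had 20 of 29 (69.0%) and 22 (75.9%). The accessory and other NDUF genes had 20 of 33 (60.6%) and 25 (75.8%). The assembly factors had 7 of 8 in both libraries, the exception being NDUFAF7. The intervals of these groups overlapped one another in both libraries. All mitoribosomal genes together had 48 of 78 (61.5%) and 57 (73.1%), and all NDUF genes 32 of 48 (66.7%) and 39 (81.2%).

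Both classes depend on the length of the lists, as given above. Of the 9 genes with a summit in WT As3+ and not in Nrf2 KO control, 8 encode mitoribosomal proteins. That is 10.3% of the 78 mitoribosomal genes (4.53 to 19.2), against 2.08% of the 48 NDUF genes (0.0527 to 11.1). These intervals overlapped, and the share of all protein-coding genes was 3.62%. The 9 genes were MRPL17, MRPL27, MRPL33, MRPL45, MRPL52, MRPS14, MRPS23, MRPS24 and the accessory subunit gene NDUFB3. MRPL27 was the strongest, with a fold of 6.84, 24 fragments and a −log10 p of 15.7 at 88 bp downstream, while its nearest Nrf2 KO control summit was 8172 bp away. NDUFB3, MRPS23, MRPS14 and MRPL33 followed with folds of 5.31, 5.14, 4.37 and 4.72. MRPL27 shares its promoter with EME1, 45 bp away, and NDUFB3 with HYCC2, 330 bp away.

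Of the 25 genes with a summit in Nrf2 KO control and not in WT As3+, 17 are mitoribosomal and 8 are NDUF genes. They make up 21.8% of the mitoribosomal genes (13.2 to 32.6) and 16.7% of the NDUF genes (7.48 to 30.2). The share of all protein-coding genes was 18.6%. MRPL15 was the strongest, with a fold of 7.46, 18 fragments and a −log10 p of 14.1 at 168 bp downstream. MRPS21 had a fold of 7.50 at 782 bp upstream, NDUFB6 7.12 at 145 bp downstream, MRPL48 6.47 at 103 bp downstream and MRPS27 6.10 at 708 bp upstream. In WT As3+ the nearest summits to these 5 genes lay from 11746 bp (MRPS27) to 47055 bp (NDUFB6) away.

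**Figure D3:**
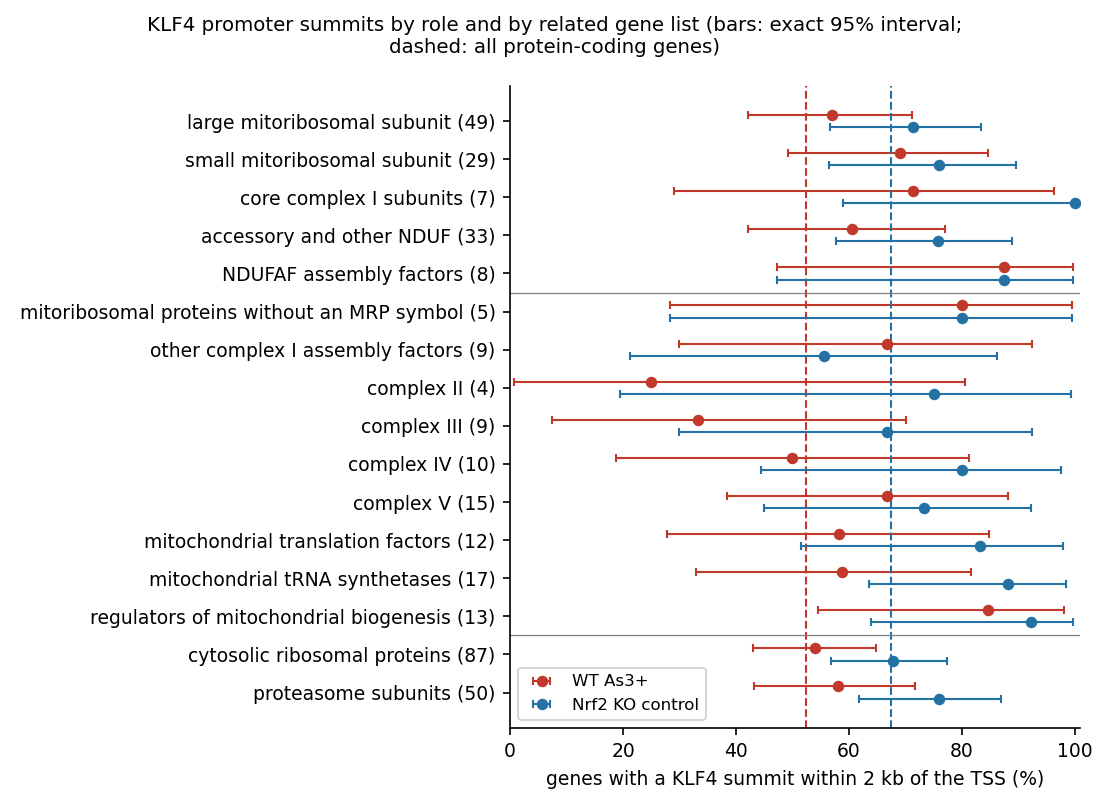
Share of genes with a promoter summit (horizontal axis, percent) in WT As3+ and Nrf2 KO control for the 5 roles (top), for other mitochondrial gene lists (middle) and for cytosolic ribosomal proteins and the proteasome (bottom), with the number of genes in brackets; bars are exact 95% intervals and dashed lines all protein-coding genes. Core subunits reach 100% in Nrf2 KO control (7 of 7), and most intervals cross the dashed line of their library.

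Other genes of the pathway gave counts on both sides of the general share, 52.5% in WT As3+ and 67.5% in Nrf2 KO control. Complex II had a promoter summit at 1 of 4 genes in WT As3+ and 3 in Nrf2 KO control, complex III at 3 of 9 and 6, complex IV at 5 of 10 and 8, and complex V, the ATP synthase, at 10 of 15 and 11. Mitoribosomal proteins without an MRP symbol had 4 of 5 in both, and complex I assembly factors without an NDUFAF symbol 6 of 9 and 5. Mitochondrial translation factors had 7 of 12 and 10, and mitochondrial tRNA synthetases 10 of 17 and 15. Regulators of mitochondrial biogenesis had 11 of 13 (84.6%, 54.6 to 98.1) and 12 (92.3%, 64.0 to 99.8), with an interval above the general share in WT As3+. Complex II (25%, 0.631 to 80.6) and complex III (33.3%, 7.49 to 70.1) were under it in WT As3+, with intervals that held it. For contrast, the cytosolic ribosomal proteins had 47 of 87 (54.0%) and 59 (67.8%), and the proteasome subunits 29 of 50 (58.0%) and 38 (76.0%). Both values of the mitochondrial set, 63.5% and 76.2%, lay inside the intervals of the proteasome subunits. They also lay inside those of the cytosolic ribosomal proteins, 43 to 64.8 and 56.9 to 77.4.

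The promoters of the mitochondrial genes were more often CpG-rich than others, but lower in GC. CpG-rich meant a GC content of at least 50% and a CpG observed/expected ratio of at least 0.6 in the 1000 bp around the TSS. This held for 111 of 126 genes (88.1%), against 64.8% of all protein-coding genes. Their median GC content was 58.0%, against 61.3%. Among CpG-rich promoters, 75 of 111 mitochondrial genes (67.6%, 58.0 to 76.1) had a summit in WT As3+, against 71.6% of all such genes, and 89 (80.2%, 71.5 to 87.1) in Nrf2 KO control, against 86.2%. The difference from other genes thus turned from above to below once CpG-rich promoters were set beside each other, by 4.02 and 6.07 points fewer. With stricter limits, a ratio of at least 0.75 and a GC content of at least 55%, the WT As3+ difference was 2.95 points above and that of Nrf2 KO control 3.39 points below. Within 500 bp of the TSS the WT As3+ difference was -0.0432 points. In Nrf2 KO control it was -12.3 points at equal list length and -10.5 at a −log10 q of 5. Of the 15 genes without a CpG-rich promoter, 5 had a summit in WT As3+ (33.3%, against 17.5% of all such genes) and 7 in Nrf2 KO control (46.7%, against 33.1%).

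Summits were more frequent at higher GC content, in the mitochondrial genes as in all genes. This division was chosen after the data had been seen. In WT As3+ the share went from 10 of 28 CpG-rich genes with 50 to 55% GC (35.7%, against 37.9% of all protein-coding genes in that class) to 27 of 39 at 55 to 60% (69.2%, against 57.2%), 21 of 26 at 60 to 65% (80.8%, against 73.6%) and 17 of 18 at 65% or more (94.4%, against 80.3%). In Nrf2 KO control it was 60.7%, 76.9%, 96.2% and 94.4%, against 57.6%, 76.3%, 88.0% and 92.9%. In each class and library the share of all protein-coding genes lay inside the interval of the mitochondrial genes. The median GC content was 60.9% for the 71 genes with both summits and 53.3% for the 21 with neither.

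**Figure D4:**
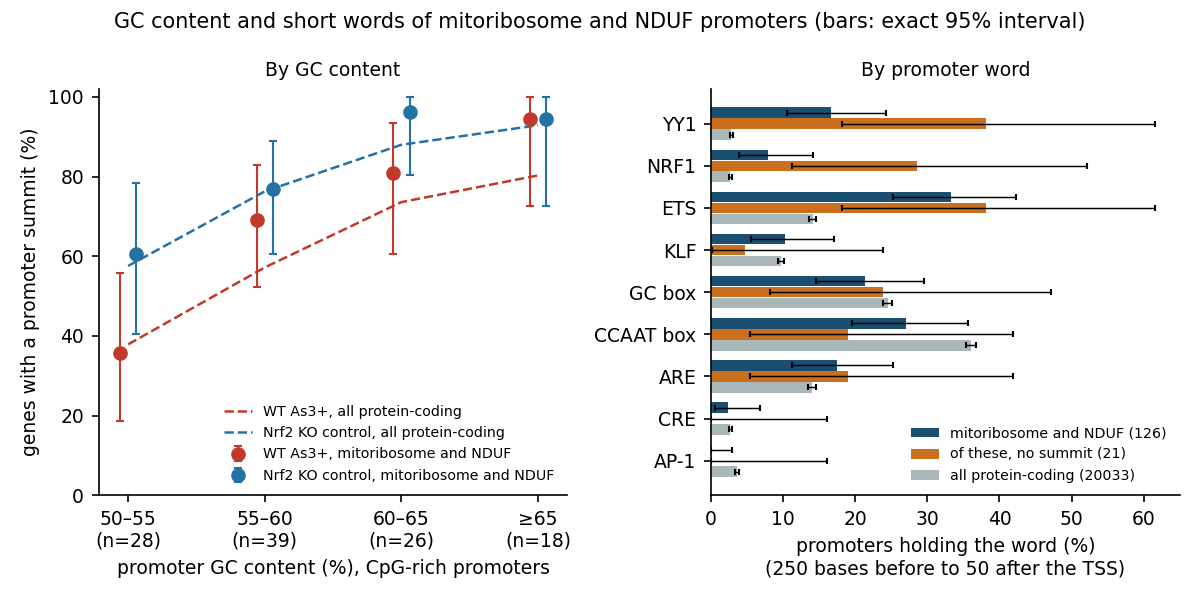
Left, share of CpG-rich genes with a promoter summit (vertical axis, percent) by promoter GC content for the mitoribosome and NDUF genes (points, exact 95% intervals) and all protein-coding genes (dashed lines). Right, share of promoters that hold each short word (horizontal axis, percent, with exact 95% intervals) for the 126 genes, the 21 with no summit and all protein-coding genes; the YY1 word is at 16.7%, 38.1% and 2.84% of them.

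No promoter summit was listed in any library at 21 genes, of which 13 encode mitoribosomal proteins. These 13 are 16.7% of the mitoribosomal genes, and the share among the NDUF genes was also 16.7%. MRPL22 and MRPL10 came nearest, with Nrf2 KO control summits 2331 and 2391 bp upstream, just outside the window. NDUFB8 had its nearest summit 6090 bp upstream in WT As3+, MRPS10 6226 bp upstream in Nrf2 KO control and MRPL42 7161 bp upstream in WT As3+. For the others, MRPL1, MRPL3, MRPL13, MRPL23, MRPL30, MRPL32, MRPS18A, MRPS18C, MRPS22, NDUFA4, NDUFA5, NDUFA8, NDUFA9, NDUFAF7, NDUFB4 and NDUFS4, it lay 8307 to 106085 bp away. NDUFA4, which is now counted with complex IV, had its nearest summit 34013 bp away, in WT As3+. Its paralogue NDUFA4L2, a gene induced by hypoxia, had a summit in WT As3+ 1705 bp downstream with a fold of 5.48 and in Nrf2 KO control 608 bp downstream with a fold of 6.25. The NDUFA4L2 promoter was not CpG-rich, with an observed/expected ratio of 0.268, while that of NDUFA4 had a ratio of 0.787.

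Promoter sequences of the genes without a summit often held a YY1 word. Letters were searched on both strands from 250 bases before to 50 after the TSS, in the GRCh38 genome. The YY1 word AAGATGGCG was found in 21 of 126 promoters (16.7%, 10.6 to 24.3), against 2.84% of all protein-coding promoters, and in 8 of the 21 promoters without a summit (38.1%, 18.1 to 61.6). Among the 21 genes with the YY1 word, the ATG inside it was an annotated start codon of the gene in 16 (76.2%). This was so in 47.0% of the 568 protein-coding genes with the word, and in 6 of the 8 genes without a summit. These 8 sites are shown because they belong to promoters with no KLF4 summit. They are from RefSeq promoters (GRCh38.p14), written 5′ to 3′ on the strand of the gene, with the word or its complement in capitals.
MRPL22 (chr5:154941093-154941122, plus strand): gtagcgggagggcgaAAGATGGCGgcggca
MRPL32 (chr7:42932143-42932172, plus strand): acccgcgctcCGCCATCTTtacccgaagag
MRPL42 (chr12:93467512-93467541, plus strand): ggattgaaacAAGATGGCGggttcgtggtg
MRPS10 (chr6:42217833-42217862, minus strand): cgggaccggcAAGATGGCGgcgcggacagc
MRPS18A (chr6:43687763-43687792, minus strand): taggtttttgAAGATGGCGgccctcaaggc
NDUFA9 (chr12:4649114-4649143, plus strand): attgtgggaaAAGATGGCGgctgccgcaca
NDUFB8 (chr10:100529835-100529864, minus strand): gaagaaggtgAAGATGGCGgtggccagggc
NDUFS4 (chr5:53560650-53560679, plus strand): tgcctgcagcAAGATGGCGgcggtgtcaat

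The NRF1 word GCGCATGCG, named for nuclear respiratory factor 1, an activator of many respiratory genes, was found in 10 promoters (7.94%, 3.87 to 14.1), against 2.70% of all. It was in 6 of the 21 promoters with no summit, 5 of which are shown in the same way.
MRPL22 (chr5:154941039-154941068, plus strand): ccagagtattGCGCATGCGtgctgtccaga
MRPS18C (chr4:83455912-83455941, plus strand): gaaaggtgctGCGCATGCGtattgaaaaac
NDUFA5 (chr7:123557957-123557986, minus strand): tatgcccatcGCGCATGCGtcaatttttct
NDUFA8 (chr9:122159764-122159793, minus strand): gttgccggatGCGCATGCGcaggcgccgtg
NDUFB4 (chr3:120596167-120596196, plus strand): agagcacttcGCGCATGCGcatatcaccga

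Genes with these words had fewer KLF4 summits than the rest of the set, and this was not seen over all genes. Some other words, given below, showed the same. With the YY1 word, 11 of 21 genes had a summit in each of WT As3+ and Nrf2 KO control (52.4%), and without it 65.7% and 81.0% did. Over all protein-coding genes with the YY1 word the shares were 67.3% and 80.8%, above the 52.1% and 67.2% of genes without it. With the NRF1 word, 4 of 10 genes had a summit in WT As3+ and 3 of 10 in Nrf2 KO control, against 65.5% and 80.2% without it. Over all protein-coding genes with the NRF1 word the shares were 69.1% and 83.0%. These differences rest on 21 and 10 genes and were not tested.

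KLF words, CCACACCC and CCACGCCC, were about as common in these promoters as elsewhere, at 13 of 126 (10.3%, 5.61 to 17.0) against 9.68%. Of the 13 genes, 9 had a summit in WT As3+ (69.2%) and 11 in Nrf2 KO control (84.6%), against 62.6% and 76.2% of all protein-coding genes with a KLF word. In the 200 bp centred on the strongest summit a KLF word was found at 18 of 96 genes in Nrf2 KO control (18.8%, 11.5 to 28), against 7.86% of all protein-coding promoter summits of that library. In WT As3+ it was found at 7 of 80 (8.75%, 3.59 to 17.2), against 8.57%. The GC box word CCCCGCCCC went the other way in these windows of Nrf2 KO control, at 5.21% (1.71 to 11.7) against 11.6%. In WT As3+ the GC box was at 13.8% against 13.7%. KLF words of 6 promoters are shown to give the letters in their setting. MRPL41, MRPL16, MRPS5 and NDUFV3 had summits in both long lists, NDUFS8 in Nrf2 KO control and MRPL33 in WT As3+.
MRPL41 (chr9:137551808-137551837, plus strand): agtccccgcggCCACACCCcctaccagatt
MRPL16 (chr11:59810891-59810920, minus strand): acagggcccctGGGCGTGGctgggcggacg
MRPS5 (chr2:95122029-95122058, minus strand): tagccccgcCCACGCCCggccgccagtcca
NDUFV3 (chr21:42893147-42893176, plus strand): gtcccgatccgGGGCGTGGccccaagggag
NDUFS8 (chr11:68030431-68030460, plus strand): ttctaaaCCACGCCCcggatgtcccgcctc
MRPL33 (chr2:27771647-27771676, plus strand): ttccaggcgggGGGCGTGGcctcgggcgac

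The 200 bases before the TSS are shown for 4 genes, picked after their values were seen, to give promoters of high and low GC content with and without a summit. They are 84% GC in MRPL41, 76% in MRPS26, which had the highest peak of Nrf2 KO control, 55% in MRPL22, which had no summit, and 49.5% in MRPL11, which had a summit in both long lists. Capitals mark the KLF word of MRPL41, the complement of the ETS word in MRPS26 and the NRF1 word of MRPL22.
MRPL41 (chr9:137551679-137551878, plus strand): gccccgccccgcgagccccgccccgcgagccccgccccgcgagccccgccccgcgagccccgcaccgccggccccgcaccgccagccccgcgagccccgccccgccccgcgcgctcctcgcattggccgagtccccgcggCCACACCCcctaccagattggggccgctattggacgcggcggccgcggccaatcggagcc
MRPS26 (chr20:3045852-3046051, plus strand): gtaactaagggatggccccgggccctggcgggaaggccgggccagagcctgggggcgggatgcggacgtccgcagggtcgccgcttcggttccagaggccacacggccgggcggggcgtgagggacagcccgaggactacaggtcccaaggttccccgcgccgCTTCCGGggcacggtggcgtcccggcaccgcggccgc
MRPL22 (chr5:154940873-154941072, plus strand): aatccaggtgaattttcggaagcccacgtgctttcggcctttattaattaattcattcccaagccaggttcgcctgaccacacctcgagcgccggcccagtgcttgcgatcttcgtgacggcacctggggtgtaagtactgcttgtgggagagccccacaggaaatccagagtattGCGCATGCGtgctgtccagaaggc
MRPL11 (chr11:66438849-66439048, minus strand): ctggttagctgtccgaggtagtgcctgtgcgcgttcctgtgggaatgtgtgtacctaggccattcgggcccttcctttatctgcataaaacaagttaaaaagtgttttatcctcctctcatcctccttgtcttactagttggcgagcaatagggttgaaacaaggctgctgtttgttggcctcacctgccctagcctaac

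The other words were more common here than elsewhere in some cases and less common in others. The ETS word CCGGAAG was in 42 of 126 promoters (33.3%, 25.2 to 42.3) against 14.1%, and in 31.2% of the promoters with a summit in each of the long lists. It was in 8 of the 21 promoters without a summit (38.1%, 18.1 to 61.6), as many as held the YY1 word. The GC box CCCCGCCCC was in 21.4% against 24.5%, and the CCAAT box word ATTGG in 27% against 36.1%. The antioxidant response element word TGACNNNGC, the core to which Nrf2 binds, was in 17.5% (22 genes) against 14.0%. Of these 22 genes, 13 had a summit in WT As3+ (59.1%) and 16 in Nrf2 KO control (72.7%), against 56.6% and 71.7% of all protein-coding genes with the word. The AP-1 words TGACTCA and TGAGTCA were in 0 of 126 promoters against 3.57%, and the CRE word TGACGTCA in 3 (2.38%) against 2.69%. Of the 42 genes with the ETS word, 59.5% had a summit in WT As3+ and 71.4% in Nrf2 KO control. Without it 65.5% and 78.6% did. With the GC box 55.6% and 74.1% had one, against 65.7% and 76.8% without. Genes without the antioxidant response element word had 64.4% and 76.9%. Over all protein-coding genes the shares were higher with each of these words. In this set the KLF and CRE words went the other way, and the CCAAT box word differed by library. Some words can share letters, namely the KLF word CCACGCCC with the GC box, and TGACTCA with the antioxidant response element. A word is a match of letters and not a site of binding.

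Summits lay close to the TSS. In WT As3+ 66 of 80 (82.5%) were within 500 bp, against 72% of all protein-coding promoter summits, and in Nrf2 KO control 68 of 96 (70.8%), against 67.1%. They were downstream of the TSS at 48.8% and 51.0% of genes, against 57.2% and 59.5%. The large-subunit genes had a median of 122 bp upstream in WT As3+ and the accessory NDUF genes of 148 bp downstream, and in Nrf2 KO control both medians were downstream, by 4 and 89 bp. Several summits within 2 kb were listed at 17 of 80 genes in WT As3+ (21.2%, against 34.5%) and at 43 of 96 in Nrf2 KO control (44.8%, against 49.4%). The peaks were of ordinary height. The median fold was 5.13 against 5.32 in WT As3+ and 5.34 against 5.81 in Nrf2 KO control, and the folds ranged from 3.25 to 10.3 and from 3.28 to 11.6. A −log10 q of 5 was reached at 42 of 80 (52.5%) and 50 of 96 genes (52.1%), against 54.5% and 57% of all protein-coding promoter summits. Counted over genes with or without a summit, the shares at this limit were 4.70 points above all protein-coding genes in WT As3+. In Nrf2 KO control they were 1.21 points above.

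**Figure D5:**
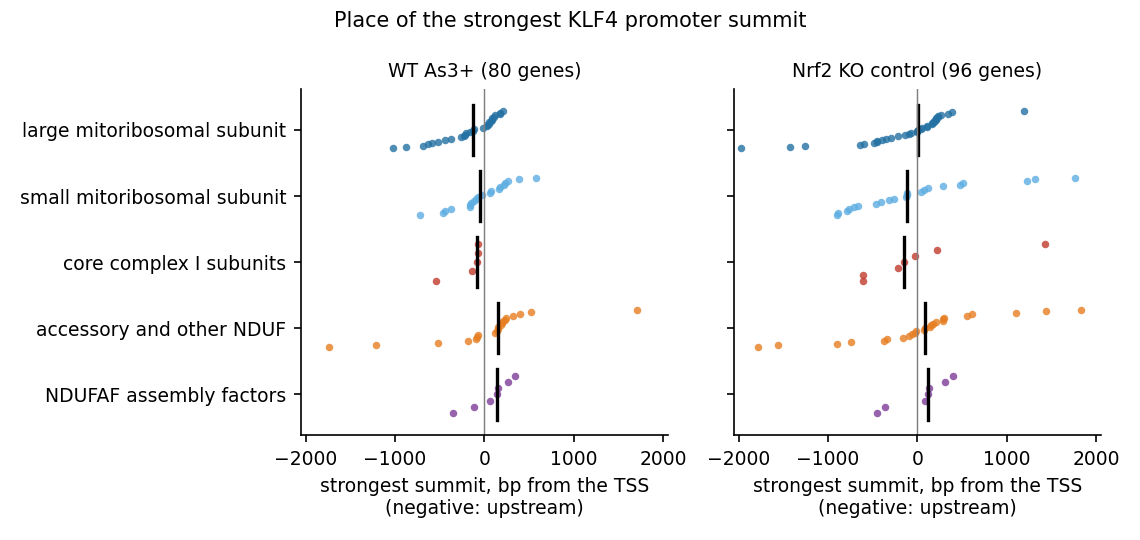
Distance of the strongest promoter summit from the TSS (horizontal axis, bp, negative upstream) for each gene with a summit, by role, in WT As3+ (80 genes) and Nrf2 KO control (96 genes); black lines are medians. The 5 core subunits of WT As3+ all lie upstream, as do 4502 of 10526 protein-coding promoter summits of that library, and most points in both panels are within 500 bp.

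Shared promoters were common in this set. An opposite-strand protein-coding TSS lay within 1 kb at 45 of 126 genes (35.7%), against 10% of all. Of these 45, 27 had a summit in WT As3+ (60%) and 35 in Nrf2 KO control (77.8%), and of the other 81 genes 53 (65.4%) and 61 (75.3%) did. For all protein-coding genes the shares were 71.4% and 84% with such a TSS and 50.4% and 65.7% without. The mitochondrial genes were below these shares on shared promoters and above them elsewhere, but most intervals held the general share. On shared promoters the intervals were 44.3 to 74.3 and 62.9 to 88.8. Elsewhere they were 54 to 75.7 in WT As3+, above the general share, and 64.5 to 84.2 in Nrf2 KO control. A pair of these genes lay within 2 kb of each other at 4 places, where 1 summit counts for both. MRPL46 and MRPS11, of the large and small subunit, start 320 bp apart on opposite strands and shared a summit with a fold of 3.62 in WT As3+ and 6.67 in Nrf2 KO control. MRPL47 and NDUFB5 start 156 bp apart and shared a summit with a fold of 4.18 in Nrf2 KO control, with none in WT As3+. MRPL36 and NDUFS6 start 1570 bp apart, and the summit counted for both, with folds of 5.47 and 5.28, lay 169 and 209 bp downstream of the MRPL36 TSS. NDUFC2 and its read-through NDUFC2-KCTD14 start 89 bp apart and were bound in both libraries.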

How the data were processed

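The labels describe 14 samples of BEAS-2B cells, and the KLF4 peak lists of 4 were used (the histone and input libraries were not analysed here). Per the labels, 75-nt reads were aligned with BWA to GRCh38, and the submitters' processing notes name bcl2fastq 2.17. The peak caller is not given in the sources used here. The lists deposited by the authors, 1 per library, give a score, a ratio (fold enrichment at the summit over local background), a −log10 p and a −log10 q, and the offset of the summit. Fragments over a summit were computed from fold = (n + 1)/(background + 1) and p as an upper Poisson tail, with a largest misfit of 0.000405 in −log10 p. Of the WT As3+ summits 29.6% lay within 500 bp of a GRCh38 TSS as listed and 1.61% after a shift of 10 kb. Read totals were not used here, so depth is known only through these fragments. TSS were those of GENCODE 44 canonical transcripts on the autosomes, X and Y. The symbol rule also takes read-through genes, of which there was 1. The RefSeq promoter table held 109 of the 126 genes, 107 of them within 50 bp of the canonical TSS.

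Counts were made with exact Clopper-Pearson 95% intervals and no test, since each condition has 1 library. The strongest summit by −log10 p within 2 kb stood for a promoter. The genes named are those with a summit in WT control or Nrf2 KO As3+, the 5 highest of each long list and of each list alone, the core subunits, the 21 genes with no summit, NDUFA4, NDUFA4L2 and genes sharing a promoter. Not every gene that the rule takes is reported here. Genes shown for their sequences and NDUFAF7 were picked after their values were seen. The members, gene lists and words were chosen with earlier results of these data known. Alternatives were other windows, TSS definitions, q thresholds, an equal list length and stricter CpG limits. The fragment, summit and word steps were tested on simulated data. The tools were samtools 1.23.1, pysam 0.24.0, scipy 1.17.1, matplotlib 3.10.9, pandas 2.3.3 and numpy 2.4.6 in Python 3.11.15.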

Additional observations from a re-analysis of the deposited data

Results flagged for a closer look

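The change in the number of mitoribosome and NDUF genes with a promoter summit ran in opposite directions in the 2 genotypes. From control to As3+ it rose by 79 genes in WT cells, from 1 to 80, and changed by -96 genes in Nrf2 KO cells, from 96 to 0. The same held for all protein-coding genes, from 0.794% to 52.5% in WT and from 67.5% to 0.195% in Nrf2 KO, and the number of listed peaks moved with it, from 751 to 29870 and from 76545 to 130. With 1 library per condition the difference between genotypes was not tested. The lowest background moved as well, from 1.90 to 0.757 fragments in WT and from 0.491 to 1.64 in Nrf2 KO, and its part in the difference was not tested.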

How the results depend on the processing

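Of 122 recomputed values that answer a comparison, 109 stayed within 1.5 times the reported count or, for a difference, less than the counting error away. Of the others, 12 moved further and 1 changed sign. Some of the 109 were fixed by construction, since cutting the Nrf2 KO control list cannot change the counts of the other libraries. Each value was judged alone, so the turn from 80 against 96 genes to 80 against 67 was not counted as a change. A stricter threshold, −log10 q ≥ 5, left 42 genes with a promoter summit in WT As3+, 50 in Nrf2 KO control and 0 in WT control, with 26 in both long lists, 16 in WT As3+ and not Nrf2 KO control, and 60 in neither. With −log10 q ≥ 2 the WT control count was also 0. Within 500 bp of the TSS, 16 genes had a summit in WT As3+ and not Nrf2 KO control and 32 in neither. With the Nrf2 KO control list at the length of the WT As3+ list these counts were 25 and 34, and 12 genes had a summit in Nrf2 KO control and not WT As3+. Genes with a summit in both long lists, in 1 alone or in neither were not counted over all protein-coding genes at these settings. Under stricter CpG limits the difference of CpG-rich genes in WT As3+ turned from -4.02 to 2.95 percentage points. The fewer peaks of a shorter window, a higher threshold or a cut list follow from their construction. The differences from all protein-coding genes kept their sign under every window, TSS, threshold and list-length alternative run, at 4.70 to 12.9 points in WT As3+ and 1.21 to 9.39 in Nrf2 KO control. No paired analysis was possible because each condition has 1 library. Peaks with few fragments limit the long lists, whose medians were 10 and 7 fragments.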
